A study of Mus musculus with 12 samples.

Results

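The genes described here encode the proteins of the cytoplasmic ribosome, measured in the submandibular salivary gland of mice at 8 weeks and at 50 weeks of age. They were chosen by symbol alone: Rps or Rpl followed by digits and, where present, only the letters a, l, x or y, together with Rpsa, Rplp0, Rplp1 and Rplp2. The array's annotation held 60 such genes, 24 of the small and 36 of the large subunit, on 89 probes. Probes were kept if at least 6 of the 12 arrays detected them (detection p under 0.05). By this filter 52 of the 60 genes were measured, 21 of the small and 31 of the large subunit, among 9379 genes tested in all. Total gland RNA from C57BL6J mice was hybridised to Illumina bead arrays, with 6 arrays labelled 8 weeks and 6 labelled 50 weeks, and no agent or genetic change is given for either age. The titles number the samples within an age and write mice in the plural, and whether a sample is 1 animal or a pool is not given. All p-values rest on how much these arrays vary, which may be technical in part. Sex is not given in the sources used here. Levels are background-corrected, quantile-normalised log2 intensities. A change is the mean level at 50 weeks less the mean level at 8 weeks, so a positive sign means higher in the older gland, and it is given ± its standard error (SE).

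Each ribosome joins a small subunit, which reads the messenger RNA, and a large subunit, which forms the peptide bonds and holds the tunnel through which the new chain leaves. Most of their proteins are present in a single copy per ribosome, and cells make them in matched amounts. Their transcripts are among the most abundant in secretory tissue. They are known to carry a tract of pyrimidines at the very start of the RNA (a 5′ terminal oligopyrimidine tract), through which mTORC1 signalling controls their translation, so that transcript level and protein output can part. Many ribosomal protein genes also have processed pseudogenes of near-identical sequence, whose RNA a probe may not tell from that of the gene.

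The region around the RefSeq transcript start is shown for 8 genes to which the comparisons below return, since the start tract is the feature that this class of transcript is known for. Each line gives 30 bases before the start and 20 from it (GRCm38.p6, gene strand). Capitals mark the longest run of a C followed by at least 4 pyrimidines (C or T) whose C lay within 5 bases of the annotated start. The search was on the gene strand alone.
Rplp2, chr7:141447621-141447670, plus strand: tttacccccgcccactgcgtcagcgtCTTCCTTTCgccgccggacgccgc
Rps2, chr17:24720033-24720082, plus strand: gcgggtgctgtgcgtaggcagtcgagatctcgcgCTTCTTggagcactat
Rps15a, chr7:118116128-118116177, minus strand: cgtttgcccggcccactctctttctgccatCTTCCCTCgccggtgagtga
Rpl26, chr11:68901536-68901585, plus strand: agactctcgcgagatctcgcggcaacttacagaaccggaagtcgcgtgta
Rps7, chr12:28635934-28635983, minus strand: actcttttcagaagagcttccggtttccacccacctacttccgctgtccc
Rpl23, chr11:97782420-97782469, minus strand: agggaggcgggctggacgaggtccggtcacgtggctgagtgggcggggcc
Rpl36a, chrX:134585624-134585673, plus strand: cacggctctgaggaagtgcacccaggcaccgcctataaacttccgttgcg
Rplp0, chr5:115559437-115559486, plus strand: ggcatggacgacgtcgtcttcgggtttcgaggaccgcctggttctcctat
Of the 60 genes, 49 had a start region in the RefSeq table. Such a tract stood in 23 of them (46.9%), in 10 of 20 small and 13 of 29 large subunit genes, against 5718 of 27025 genes of the whole table (21.2%). A missing match says only that these letters are not near the annotated start, which can differ from the start used in the gland. The 8 genes shown were picked for the comparisons below and do not stand for the set. Rplp2, Rps2 and Rps15a, shown with a tract, had fitted changes above 0. Rpl7a, Rpl27a and Rps6, not shown, also carry a tract and had changes of -0.23, -0.11 and -0.07. Whether a tract goes with the direction of change was not tested.

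Mean probe intensity ran from 207 to 324 over the arrays, and 15318 to 18110 probes were detected per array. Markers of acinar cells (11 of 11 measured) and granular duct cells (6 of 7, with Nrg1 detected on no array) were present. Array 6 of the 50-week group (old array 6 below) stood apart from the rest, with a mean correlation of 0.949 to the others of its age, against 0.975 or more for every other array. Results that rest on it are therefore given with and without it.

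Few ribosomal protein transcripts passed the test between the ages, and the fitted differences were small. In the small subunit 0 of 21 genes passed limma's moderated test after Benjamini-Hochberg adjustment over all 9379 genes, and 3 had an unadjusted p under 0.05, 2 higher and 1 lower at 50 weeks. In the large subunit 1 of 31 genes fell, Rpl26, 0 rose, and 2 had an unadjusted p under 0.05. Over all genes tested 12.5% passed, 6.35% as higher and 6.13% as lower, so the share of ribosomal protein genes that passed, 1 of 52 or 1.92%, was below the background. An unadjusted p under 0.05 was met by 5 of the 52 genes, against 27.2% of all genes. The median change was -0.02 in the small and -0.03 in the large subunit, beside -0.02 over all genes.

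**Figure D1:**
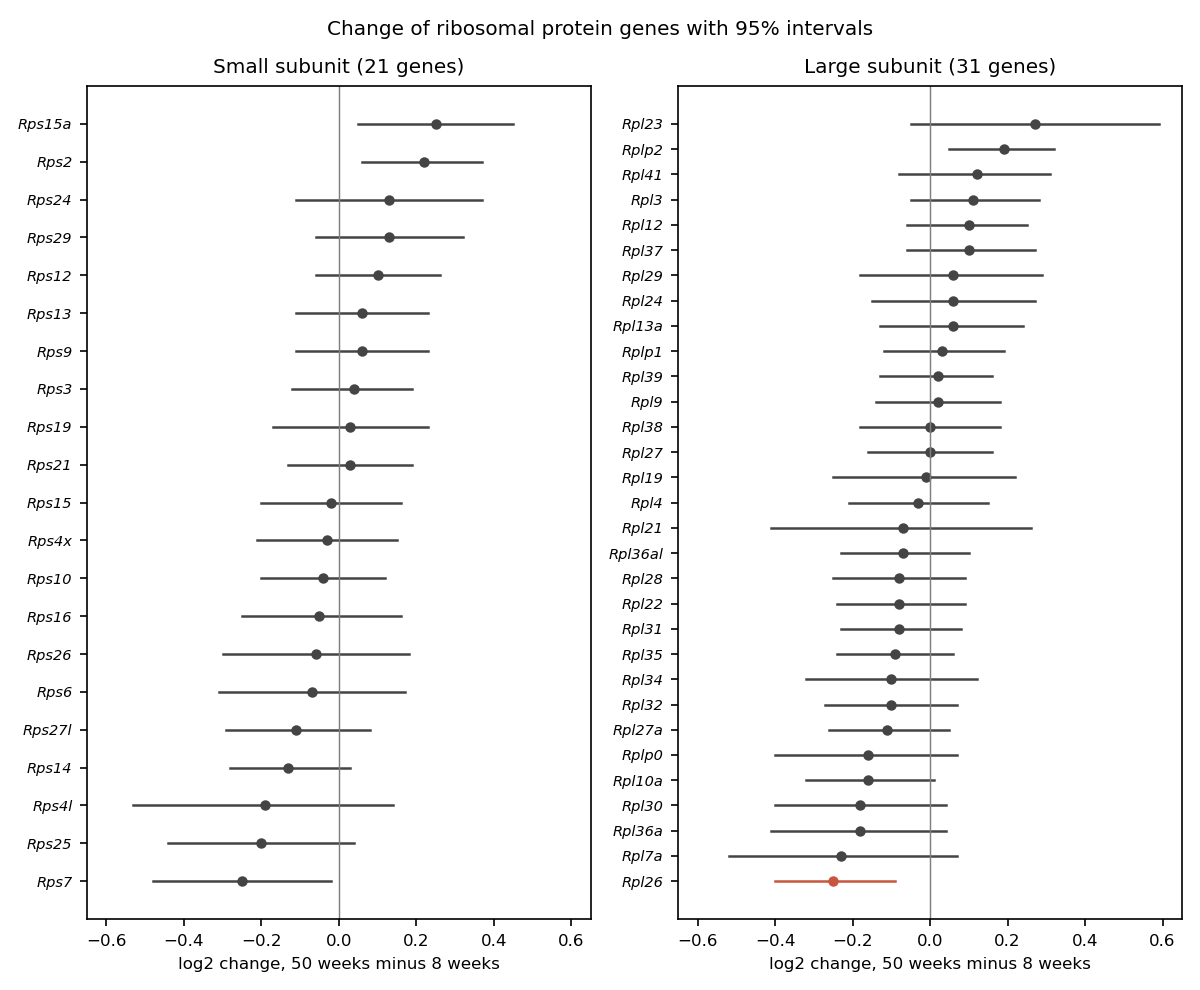
Log2 change from 8 to 50 weeks (horizontal axis, 50 weeks minus 8 weeks) of the 21 small and 31 large subunit genes, ordered by change, with the 95% interval of the limma fit (bars, n = 6 arrays per age). Changes run from -0.25 to 0.27, and Rpl26, in red, is the 1 gene past the adjusted threshold.

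Fitted changes ran from -0.25 to 0.25 in the small and from -0.25 to 0.27 in the large subunit, with a median size of 0.09 over both, against 0.15 over all genes, whose changes ran from -2.75 to 3.14. The 95% interval of the change lay within 0.5 of 0 for 49 of the 52 genes (94.2%) and within 1 for all 52. Among all genes the interval lay within 0.5 of 0 for 66.7%, and among the 736 other genes of mean log2 intensity above 10 for 81.1%. The signs were mixed: 10 of the small subunit genes had a fitted change above 0 and 11 below, and in the large subunit 12 lay above 0 and 19 below. Summed over genes, the ribosomal proteins made up 5.45% ± 0.0869 (SD, n = 6) of the normalised linear signal of all genes tested at 8 weeks and 5.65% ± 0.28 at 50 weeks. Old array 6 held the highest share, 6.2%, and the other 50-week arrays, at 5.44% to 5.62%, overlapped the young range of 5.31% to 5.54%.

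Rpl26 sits near the exit of the peptide tunnel and in human cells also binds the p53 messenger RNA. At 8 weeks its level had a lowest value of 11.48, a median of 11.70 and a highest value of 11.77, and at 50 weeks the same values were 11.35, 11.42 and 11.49. The old arrays lay below the young ones on 5 of 6, and the overlap came from young array 2, whose 11.48 lay just under the highest old value. Rpl26 was 1.19-fold lower at 50 weeks (log2 change -0.25 ± 0.07 SE, 95% interval -0.40 to -0.09, adjusted p = 0.0352 by limma). It passed without young array 2 or old array 6 and lost its call when any other array was left out (adjusted p up to 0.0746). After scaling the arrays to a common median in place of quantile normalisation, the change was -0.10 (adjusted p = 0.807), with 4.19% of all genes called. On the authors' scaled values it was -0.17 (adjusted p = 0.179), with 9.51% called.

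**Figure D2:**
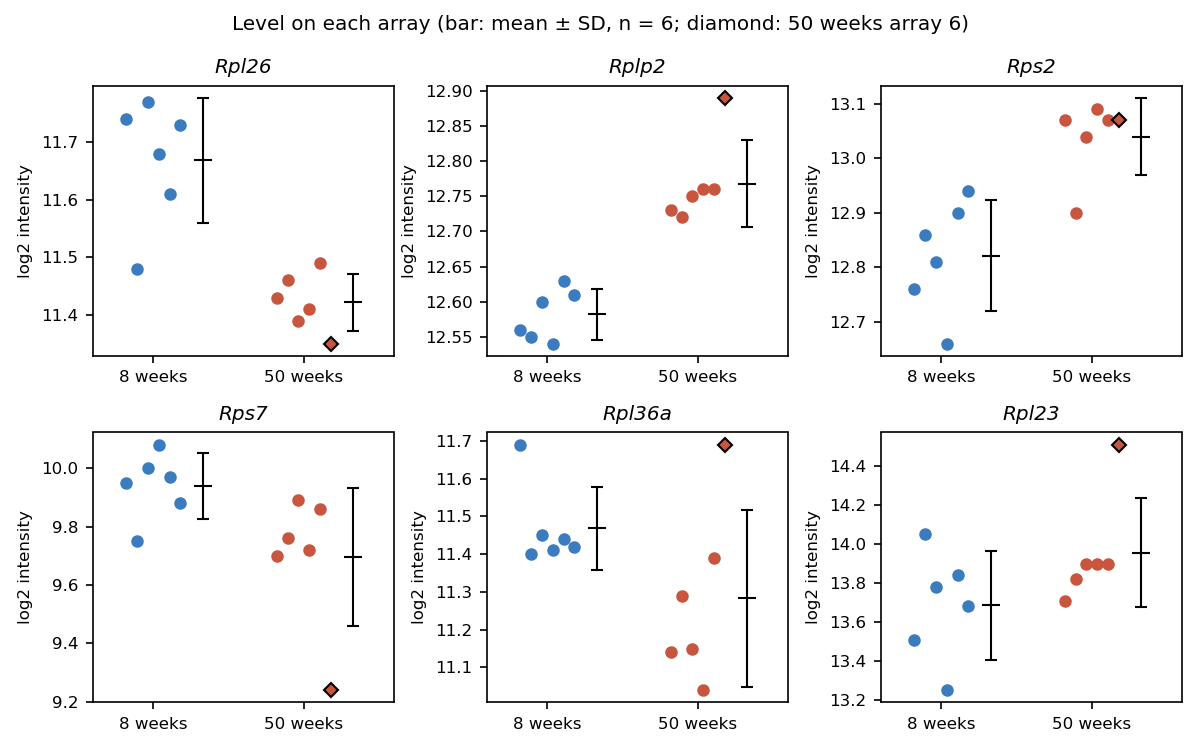
Log2 intensity (vertical axis, separate scale per gene) on each of the 6 arrays at 8 weeks (blue) and at 50 weeks (red) for 6 genes, with mean ± SD (n = 6) as bars and old array 6 as a diamond. Rplp2 is the 1 gene without overlap between the ages, and the diamond lies at the edge of its group in Rpl26, Rplp2, Rps7, Rpl36a and Rpl23.

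The stalk of the large subunit, which draws elongation factors to the ribosome, is built from Rplp0, Rplp1 and Rplp2. With all 12 arrays none of these passed the adjusted threshold, and differences between their changes were not tested. Rplp2 had levels of 12.54, 12.58 and 12.63 at 8 weeks (lowest, median, highest) and 12.72, 12.75 and 12.89 at 50 weeks. Every old array lay above every young one, which held for 1 of the 52 genes (1.92%) against 6.45% of all genes in either direction. The difference of 0.19 ± 0.06 nevertheless missed the adjusted threshold (adjusted p = 0.0686 by limma), and it passed on the authors' scaled values (0.20, adjusted p = 0.0429). Rplp1, the partner of Rplp2 in the stalk dimer, differed by 0.03 ± 0.07, with old values of 13.41 to 13.61 inside a young range of 13.27 to 13.59 on 5 of 6 arrays. Rplp0, the base of the stalk, differed by -0.16 ± 0.11 on a much dimmer probe (mean 6.80 at 8 weeks, against 13.45 for Rplp1 and 12.58 for Rplp2). It read 6.64 to 6.93 at 8 weeks and 6.40 to 6.66 on 5 old arrays, while old array 6 read 7.09, the highest of all 12.

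Among small subunit genes, Rps2, whose protein lies at the channel where messenger RNA enters, had levels of 12.66, 12.84 and 12.94 at 8 weeks (lowest, median, highest) and 12.90, 13.07 and 13.09 at 50 weeks. Old arrays were above the whole young range on 5 of 6, the exception being old array 2 at 12.90. The difference was 0.22 ± 0.07 (95% interval 0.06 to 0.37, adjusted p = 0.0617 by limma). Rps15a, a core protein bound to the 18S ribosomal RNA, differed by 0.25 ± 0.09 (adjusted p = 0.0967) on a faint probe that 4 young and 6 old arrays detected. Its median was 5.12 at 8 weeks and 5.39 at 50 weeks, and 2 old arrays lay above the young range. Its difference was 0.07 without background correction and 0.05 on the authors' scaled values. Rps7, which takes part in early assembly of the small subunit, differed by -0.25 ± 0.11 (adjusted p = 0.155), and its lowest value, 9.24, was that of old array 6, below the 9.70 to 9.89 of the other old arrays. Rps25, which some viral RNAs need to start translation without a cap, differed by -0.20 ± 0.11 (adjusted p = 0.266), from 11.45 to 11.65 at 8 weeks and from 10.93 to 11.70 at 50 weeks. Rps29, a zinc-binding protein of the subunit head, differed by 0.13 ± 0.09 (adjusted p = 0.371).

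Rps6, the ribosomal protein that S6 kinase phosphorylates downstream of mTORC1, differed by -0.07 ± 0.11 (adjusted p = 0.755). On 11 arrays it lay between 10.83 and 11.03, and old array 6 read 10.30. Rps19, whose human gene is often mutated in Diamond-Blackfan anaemia, differed by 0.03 ± 0.09, and Rps3, at the messenger RNA entry, by 0.04 ± 0.07. Rps14 differed by -0.13 ± 0.07 and Rps24 by 0.13 ± 0.11. The remaining small subunit genes lay between -0.19 and 0.10.

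In the large subunit the highest fitted change was that of Rpl23, a protein of the face between the subunits that in human cells also binds the p53 regulator MDM2. It read 13.25, 13.73 and 14.05 at 8 weeks (lowest, median, highest) and 13.71, 13.90 and 14.51 at 50 weeks. Old array 6 was the 1 old array above the young range, and the difference of 0.27 ± 0.15 did not pass (adjusted p = 0.262 by limma). A second bright probe of the same gene differed by -0.14 ± 0.09 and the third by -0.29 ± 0.09, so the sign depended on the probe. Rpl7a, an RNA-binding protein of the large subunit, differed by -0.23 ± 0.14 (adjusted p = 0.32), with its lowest value, 5.63, on old array 6. That difference was -0.09 without background correction and -0.07 on the authors' scaled values. Rpl41, a very short basic peptide, read 13.90 to 14.05 at 8 weeks and 13.84 to 14.42 at 50 weeks, a difference of 0.12 ± 0.09. Rpl21 was read by a faint probe, at 5.60 to 5.87 at 8 weeks and 5.29 to 6.40 at 50 weeks (difference -0.07 ± 0.16). The old maximum was old array 6.

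Fitted changes were also small for other large subunit proteins with well-known roles. Rpl3, next to the peptide-forming centre, differed by 0.11 ± 0.08, and Rpl4, which lines the exit tunnel, by -0.03 ± 0.08. Rpl39, a short protein of the tunnel exit, differed by 0.02 ± 0.07, with 12.77 to 12.87 at 8 weeks and 12.74 to 13.00 at 50 weeks. Rpl38, which in mice is needed for patterning of the axial skeleton, differed by 0.00 ± 0.09 (95% interval -0.18 to 0.18). Rpl22, an RNA-binding protein needed for T-cell development in mice, differed by -0.08 ± 0.08. Rpl10a differed by -0.16 ± 0.08 (adjusted p = 0.217) and Rpl30 by -0.18 ± 0.10 (adjusted p = 0.294).

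Several symbols in the set mark paralogues or sex-chromosome copies. Rpl36a and Rpl36al encode near-identical proteins from the X chromosome and chromosome 12. Rpl36a read 11.40, 11.43 and 11.69 at 8 weeks (lowest, median, highest) and 11.04, 11.22 and 11.69 at 50 weeks, a difference of -0.18 ± 0.11 (adjusted p = 0.289 by limma), while Rpl36al differed by -0.07 ± 0.08. Whether the probes separate these copies was not tested. Rps27l, a paralogue of Rps27 that p53 induces, differed by -0.11 ± 0.09 (adjusted p = 0.457), and Rps4x, from the X chromosome, by -0.03 ± 0.08. Rps4l, an autosomal relative, was detected by 6 young and 3 old arrays near the floor of detection (mean floor 5.02 at 8 weeks and 4.92 at 50 weeks), so its difference of -0.19 ± 0.16 gives no fold. Rpl3l, known as the muscle form of Rpl3, was detected on at most 3 of 12 arrays, and Rpl39l, known from testis, on 0.

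The other genes that no probe measured were Rpl6, Rpl14, Rpl17, Rps20, Rps23 and Rpsa, with detection on 0 to 5 arrays per probe. All of them encode core ribosomal proteins, and 40 of the 52 measured genes had a mean log2 intensity above 10. A probe that fails and a transcript of low level cannot be told apart here. The measured genes Rplp2, Rpl37, Rps24 and Rps19, named after their values were seen, each also had at least 1 probe detected on at most 2 arrays beside a bright one.

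Several probes of a gene did not always give the same sign. Of the 52 genes 12 had more than 1 kept probe, and in 5 of these the fitted changes had both signs (Rpl23, Rpl27a, Rpl30, Rpl31 and Rps3). Tested probe by probe, 1 of the 69 kept probes passed limma's adjusted threshold, against 9.64% of all probes, and 8 had an unadjusted p under 0.05. The probe that passed was the single probe of Rpl26 (adjusted p = 0.0487 over all probes). The widest gap within a gene other than Rpl23 was that of Rpl38, whose bright probe differed by 0.00 and whose faint probe differed by 0.50 ± 0.17 (adjusted p = 0.0804). The 2 probes of Rps2 differed by 0.22 and 0.15, and the 2 of Rps12 by 0.10 and 0.03.

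Old array 6 lay at the edge of the range for most ribosomal protein genes. It held the highest of the 12 values for 23 of the 52 genes and the lowest for 12, so 35 (67.3%) lay outside the range of the other 11 arrays. No other array was extreme for more than 10 of these genes. Over all genes tested that array was extreme for 51.9%, and for 47.7% of the 736 other genes above 10. The middle 50% of ribosomal genes spanned 0.41 there around the genes' own 12-array means, against 0.10 to 0.20 on the other arrays.

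**Figure D3:**
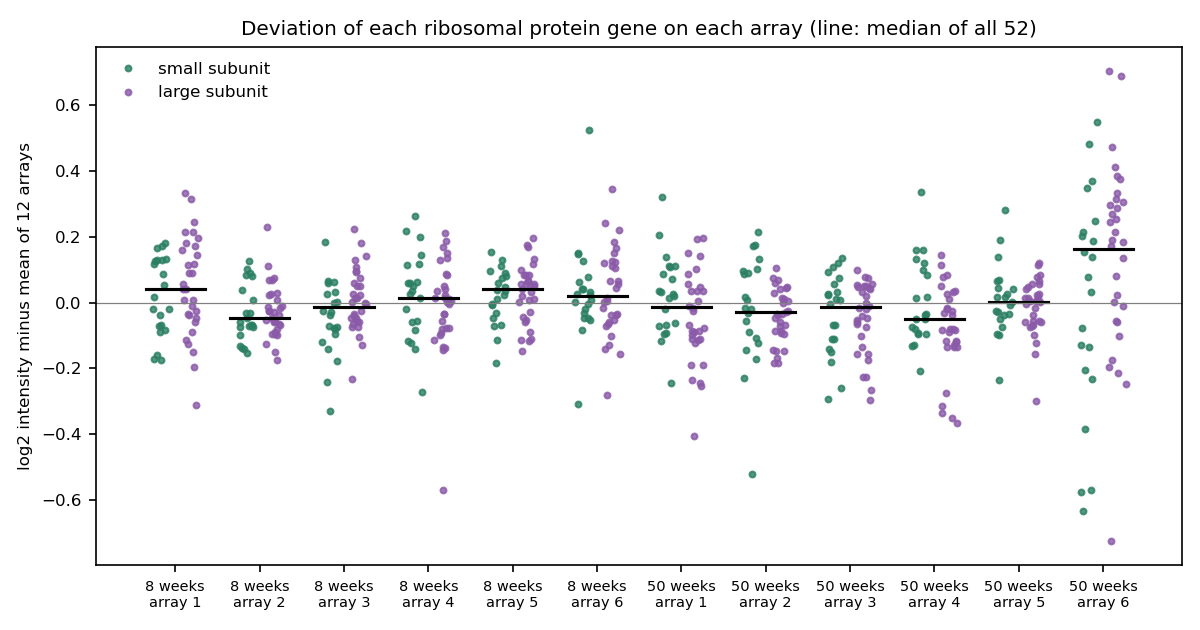
Log2 intensity of each ribosomal protein gene on each array minus its mean over the 12 arrays (vertical axis), for small (green) and large (purple) subunit genes, with the median of all 52 as a line. The points of 50 weeks array 6 spread from -0.73 to 0.70 with a median of 0.16, and the medians of the other 11 arrays lie between -0.05 and 0.04.

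Both subunits split on that array. In the small subunit 8 genes were highest and 7 lowest there, and in the large subunit 15 were highest and 5 lowest. The genes highest there, relative to the mean of the other 5 old arrays, were led by Rpl21 (0.89), Rpl23 (0.67), Rps26 (0.61) and Rps24 (0.58). Those lowest were led by Rpl7a (-0.74), Rps6 (-0.65), Rps4l (-0.64) and Rps7 (-0.55). Rps26 read 12.34 there against 11.63 to 12.04 elsewhere, and Rps16 read 10.91 against 11.22 to 11.50. Summed linear signal of the 72 measured mitochondrial ribosomal proteins was also highest there, at 34371 against 26464 to 30058 on the other arrays, while that of the common reference genes was 23423, below the 26135 to 28122 of the other old arrays and within the young range of 21496 to 27251. The extraction notes mention a Bioanalyser check of RNA quality without values per sample. The part of RNA quality in these values was not tested.

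Without that array the age comparison called more ribosomal genes, and more of all genes. In the small subunit 2 rose, Rps2 (0.21, adjusted p = 0.0374 by limma) and Rps15a (0.28, adjusted p = 0.0493), and 0 fell. In the large subunit 1 rose, Rplp2 (0.17, adjusted p = 0.036), and 4 fell, namely Rpl26 (-0.23, adjusted p = 0.022), Rpl36a (-0.27, adjusted p = 0.0295), Rplp0 (-0.25, adjusted p = 0.0304) and Rpl30 (-0.25, adjusted p = 0.0424). These 7 of 52 (13.5%) stood against 24.9% of all genes in the same fit, 11.3% higher and 13.6% lower. An unadjusted p under 0.05 was met by 6 of 21 small and 8 of 31 large subunit genes, against 3633 of all 9379 genes. Every one of the 7 changed by less than 0.3, and the median change was 0.01 in the small and -0.06 in the large subunit, beside -0.03 over all genes. Rps25 came closest among the rest (-0.27, adjusted p = 0.0533). Rps7, Rpl23, Rpl7a and Rpl21, for which that array was extreme, changed by -0.15, 0.16, -0.10 and -0.23 without it (adjusted p from 0.0981 to 0.443).

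**Figure D4:**
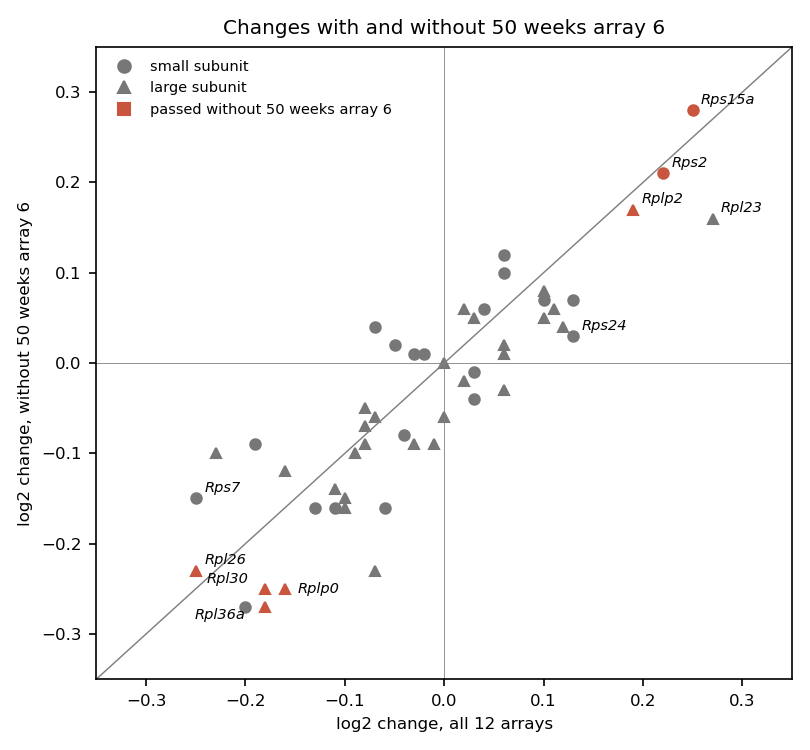
Log2 change of each of the 52 genes with all 12 arrays (horizontal axis) and without 50 weeks array 6 (vertical axis), with circles for the small and triangles for the large subunit and a line where both are equal. The 7 genes in red passed the adjusted threshold without that array, 3 above and 4 below 0, and Rpl23 and Rps7 moved towards 0.

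The number of ribosomal genes called was set beside the background of each other way of processing the same arrays. Array weights, which give less to arrays that stand apart, called the same 7 genes, against 27.6% of all genes. Without background correction Rplp2 and Rps2 rose and Rpl26 fell (13.9% of all genes called), and the same 3 were called without a detection filter (5.45%). The authors' scaled values called Rplp2 alone (9.51%). After scaling to a common median limma called 0 (4.19%), and 1 had an unadjusted p under 0.05. Among all genes these settings also moved the split of calls, from 596 higher and 575 lower to 545 and 347 on the authors' values and to 320 and 73 with a common median. Rpl26 alone was called with probes detected on all 12 arrays (13.8%) and with the mean of a gene's probes (12.5%). With the sample number as a block 0 were called by limma (9.71%), and 5 had an unadjusted p under 0.05. Leaving out both young array 2 and old array 6 called 5 genes, namely Rps2 higher and Rpl26, Rpl36a, Rplp0 and Rps27l lower (26.9%). Leaving out young array 2 called Rpl26 alone (13.4%). In the other 10 fits that leave out 1 array limma called 0 ribosomal genes, against 9.67%, 9.77%, 9.11%, 9.66% and 9.65% of all genes without young arrays 1, 3, 4, 5 and 6, and 8.64%, 9.7%, 9.25%, 9.05% and 9.29% without old arrays 1 to 5. In those 10 fits 4 or 5 ribosomal genes had an unadjusted p under 0.05.

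Genes that act with the ribosome were compared in the same fit by lists written from general knowledge. The share called in each list stands beside 12.5% of all genes, 6.35% higher and 6.13% lower. Of the factors that carry the elongation cycle, 0 of 8 passed and 0 had an unadjusted p under 0.05, with a median change of 0.05. Eef1a1, which brings aminoacyl-tRNA to the ribosome, differed by 0.14 ± 0.08 (adjusted p = 0.29 by limma). It read 14.05 on old array 6 and 14.31 to 14.51 on the other old arrays. Eef2, named after its values were seen, differed by -0.21 ± 0.71. It read 4.53 on old array 6, 9.26 to 9.53 on the other old arrays and 8.35 to 9.24 at 8 weeks. Without old array 6, 2 of the 8 rose and 0 fell (changes from -0.08 to 0.61). In that fit 11.3% of all genes were higher and 13.6% lower. Initiation factors, with 29 measured, held 1 that rose and 1 that fell (6.9%), with a median of -0.07. Eif2b2, a subunit of the exchange factor that recharges eIF2, rose from 6.82 ± 0.14 to 7.23 ± 0.13 (SD, n = 6), with all 6 old arrays above the young range (0.41 ± 0.09, adjusted p = 0.00919). Eif4a2, an RNA helicase of the cap complex, fell by 0.32 on the log2 scale (adjusted p = 0.0484), and its call ended in 10 of 12 fits with 1 array left out (adjusted p up to 0.102), all but those without young array 2 or old array 6. Eif2a lay below the young range on all 6 old arrays and did not pass (-0.23 ± 0.07, adjusted p = 0.0508 by limma). Pabpc1, the poly(A)-binding protein, is named outside the rule. It also lay below the young range on all 6 old arrays, with a difference of -0.47 ± 0.15 that did not pass (adjusted p = 0.052). Its level was 10.83 on old array 6 and 11.61 to 11.77 on the other old arrays. Without that array the lowest change among the initiation factors was -0.33.

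Of 8 other transcripts known for the same kind of start tract, 2 fell and 0 rose (25%, against 12.5% of all genes), with a median of -0.17. Their fitted changes ran from -0.34 to 0.54. The highest was that of Vim (0.54 ± 0.25, adjusted p = 0.185 by limma). Tmsb10, named after its values were seen, differed by 0.32 ± 0.15 (adjusted p = 0.202). Without old array 6, 2 rose and 2 fell, against 11.3% of all genes higher and 13.6% lower. The median was then -0.12, with changes from -0.31 to 0.75. Npm1, a nucleolar chaperone of ribosome assembly, fell from 11.42 ± 0.09 to 11.08 ± 0.08 (SD, n = 6), with all 6 old arrays below the young range (-0.34 ± 0.07, adjusted p = 0.00748 by limma). Naca, a subunit of the complex that shields new chains at the tunnel exit, fell from 12.11 ± 0.11 to 11.83 ± 0.08, also on 6 of 6 (-0.28 ± 0.07, adjusted p = 0.026). The call of Naca ended without young array 3, 4 or 6 or old array 4 or 5 (adjusted p up to 0.064), and that of Npm1 in 0 of 12 such fits. Rps3a1, a small subunit gene whose symbol falls outside the pattern, differed by -0.24 ± 0.08 (adjusted p = 0.0639), and was chosen after its values were seen.

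Ribosome assembly genes showed few changes and no common direction. Of 50 assembly factors measured, 2 rose and 2 fell (8%, against 12.5% of all genes), with a median of -0.03. Rrp1b, a nucleolar protein of pre-rRNA processing, fell from 6.35 ± 0.15 to 5.93 ± 0.14 (SD, n = 6), and its change was -0.42 ± 0.09 (adjusted p = 0.00878 by limma). Tsr1, a small subunit assembly factor, rose by 0.38 ± 0.09 (adjusted p = 0.0181) and Tsr2, a chaperone of Rps26, by 0.28 ± 0.08 (adjusted p = 0.0396). The call of Tsr2 ended when any array but young array 4 or old array 6 was left out (adjusted p up to 0.088). Ftsj3, a methyltransferase of rRNA maturation, also fell (-0.31 ± 0.09, adjusted p = 0.0436), and is named outside the rule, after its values were seen. It passed only without young array 2 or old array 1, 2 or 6 among the fits that leave out 1 array. Of the 13 genes for RNA polymerase I and its factors, 2 fell and 0 rose, Taf1d (-0.41 ± 0.11, adjusted p = 0.0232) and Polr1c (-0.34 ± 0.10, adjusted p = 0.0415), which is shared with RNA polymerase III. The call of Taf1d ended without young array 1, 3 or 4 or old array 5 (adjusted p up to 0.0539), and that of Polr1c without any array but young array 2 or old array 6 (up to 0.0916). Among 9 genes named for likeness to or association with the ribosome, 0 passed and 0 had an unadjusted p under 0.05, and Rpl22l1, a paralogue of Rpl22, differed by -0.33 ± 0.16 (adjusted p = 0.201).

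**Figure D5:**
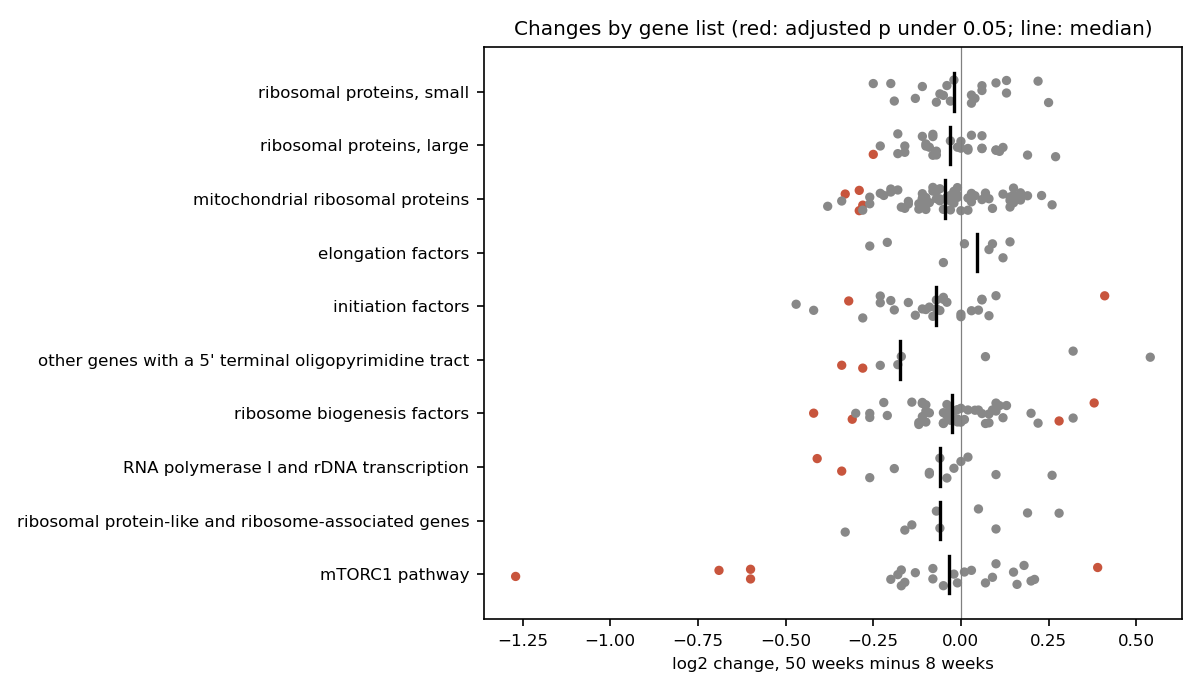
Log2 change from 8 to 50 weeks (horizontal axis) of each measured gene in the ribosomal protein sets and 8 related lists, with called genes in red and the median of each list as a line. List medians run from -0.17 to 0.05, and the widest single changes are in the mTORC1 list, down to -1.27.

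Mitochondrial ribosomal proteins, encoded in the nucleus but serving the ribosome of the mitochondrion, held 4 of 72 that fell and 0 that rose (5.56%), with a median of -0.04. An unadjusted p under 0.05 was met by 9 of the 72, all lower at 50 weeks. Over all 9379 genes 1351 met it as lower and 1199 as higher, and 6.13% were called lower and 6.35% higher. Mrpl15 (-0.28 ± 0.07, adjusted p = 0.0221 by limma), Mrps30 (-0.33 ± 0.09, adjusted p = 0.0282) and Mrpl12 (-0.29 ± 0.08, adjusted p = 0.0365) had the smallest adjusted p. The fourth, Mrpl50, changed by -0.29 ± 0.09 (adjusted p = 0.049), and is named outside the rule. Without old array 6, 18 of the 72 fell and 0 rose, with a median of -0.08, in a fit where 13.6% of all genes fell. Among fits that leave out 1 array, Mrpl15 lost its call without old array 3 or 4. Mrps30 kept its call only without young array 2, 5 or 6 or old array 6, Mrpl12 only without young array 1 or 6 or old array 6, and Mrpl50 only without young array 3 or old array 6.

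The mTORC1 pathway, which controls ribosomal protein synthesis, held the widest changes among these lists. Of 26 genes measured 1 was higher and 4 were lower (19.2%, against 12.5% of all genes), with a median of -0.04. Eif4ebp1, the repressor of cap-dependent initiation that mTORC1 releases, fell from 10.88 ± 0.16 to 10.19 ± 0.17 (SD, n = 6), with no overlap between the ages (-0.69 ± 0.10, adjusted p = 0.000664 by limma). Ddit4l, an inhibitor of the pathway, fell from 6.26 ± 0.27 to 4.99 ± 0.22 (-1.27 ± 0.13, adjusted p = 7.53e-05), and 4 of the old arrays detected it. Its old mean lay near the mean detection floor of 4.92, and on the authors' scaled values the change was -0.44 (adjusted p = 0.000527). Rragd, a GTPase that brings mTORC1 to lysosomes, fell by 0.60 on the log2 scale (adjusted p = 0.00626). Pdcd4, an inhibitor of Eif4a1, fell by 0.60 (adjusted p = 0.00759), and Mlst8, a subunit of the complex, rose by 0.39 ± 0.10 (adjusted p = 0.0202), both named outside the rule after their values were seen. All 5 calls held with any 1 array left out, with adjusted p up to 0.0486 for Mlst8. After scaling to a common median, Rragd, Pdcd4 and Mlst8 did not pass (adjusted p = 0.216, 0.127 and 0.0678), and all 5 kept their direction.

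Other settings touched most of these lists. After scaling to a common median, the genes named above as changed in the initiation, start tract, assembly, RNA polymerase I and mitochondrial lists all kept their sign and none passed (adjusted p from 0.0798 for Eif2b2 to 0.742 for Naca by limma). On the authors' scaled values Eif4a2, Naca, Tsr1, Tsr2, Ftsj3, Taf1d, Polr1c and Mrpl50 did not pass (adjusted p from 0.0541 for Tsr1 to 0.34 for Tsr2, whose change was 0.08). The other genes named as changed in the related lists still passed there, each with a smaller change. Among these changes were 0.25 for Eif2b2, -0.28 for Npm1, -0.17 for Rrp1b, -0.17 for Mrpl15, -0.37 for Rragd and -0.59 for Eif4ebp1. Without old array 6, 11.3% of all genes were higher and 13.6% lower. In that fit the counts of higher and lower genes were 2 and 0 of 8 for elongation and 2 and 5 of 29 for initiation. They were 2 and 2 of 8 for the start tract list, 3 and 3 of 50 for assembly and 0 and 3 of 13 for RNA polymerase I. For ribosome-like genes they were 0 and 1 of 9, and for mTORC1 3 and 4 of 26.

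Markers of several cell types differed between the ages, in a fit where 6.35% of all genes rose and 6.13% fell. In RNA of a mixed tissue fewer cells of a type and less RNA per cell cannot be told apart. For B and plasma cells 3 of 4 measured markers of 10 on the array rose, and their summed linear signal ran from 24 to 153 at 8 weeks and from 116 to 666 at 50 weeks, with Tnfrsf17, Cr2 and Pax5 detected on no array. The measured Mzb1, Pou2af1, Fcrla and Cd79b were detected on 2, 1, 2 and 2 young arrays and on all 6 old ones. They passed the detection filter through the old arrays, so the share that rose is partly set by that filter. For T and NK cells 3 of 6 measured of 11 rose, with sums of 56 to 334 and 248 to 508, and Cd247, Cd8a, Gzmb and Trat1 detected on no array. The same limit holds for Cd3g, Cd3d, Cd2 and Klrd1, detected on 2, 2, 2 and 3 young arrays and on 6, 6, 5 and 6 old ones. Macrophage and dendritic cell markers rose in 8 of 9, with sums of 2304 to 6405 and 5383 to 8597. Contractile cell markers rose in 6 of 7, with sums of 11115 to 13994 and 15916 to 18181, and of 8 fibroblast markers 4 fell and 1 rose, with sums of 6425 to 9042 and 5052 to 7103. Adipocyte markers, 2 of 6 measured, had sums of 27 to 1926 at 8 weeks and 21 to 194 at 50 weeks. Skeletal and cardiac muscle markers, 1 of 6 measured, had sums of 26 to 513 and 29 to 47. In both lists the ages overlapped, and 0 of either passed or had an unadjusted p under 0.05. Acinar markers, 1 of 11 of which rose, had sums of 147682 to 192603 and 148968 to 188799. These sums do not show single genes: Amy1 ran from 8.14 to 14.10 at 8 weeks and from 7.73 to 13.80 at 50 weeks. It was lowest on arrays 3 and 5 at both ages, while the very bright Dcpp2 read 15.23 on all 6 old arrays. Granular duct markers, 1 of 6 of which fell (Klk1, -0.73 ± 0.09, adjusted p = 0.000177 by limma), had sums of 176377 to 185584 and 163627 to 173586. Their part in the ribosomal values was not tested. Of 10 common reference genes measured, 2 rose, Gusb (0.41 ± 0.08) and B2m (0.87 ± 0.21), and the median was 0.03.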

How the data were processed

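The deposited table holds, per the file headers, a linear probe intensity and a detection p-value for each of 45281 probes on 12 arrays. Per the labels, Trizol-extracted RNA was DNase-treated and amplified into biotin cRNA (Ambion MessageAmp). A second deposited table holds the same intensity multiplied by the authors by 1 factor per array, 0.803 to 1.26, so that all array means are 260.6, and served as an alternative. The sources used here do not give the scanner or summary software. Intensities were background-corrected from the detection p-values and quantile-normalised (neqc, offset 16) with limma 3.58.1 in R 4.3.3, using data.table (version 1.17.8) and, for array weights, statmod 1.5.0. Probes with detection p under 0.05 on at least 6 of 12 arrays were kept (16254). Symbols came from the platform annotation (34885 probes with 1, 18 with several and 10378 with no symbol). The brightest kept probe stood for its gene, giving 9379 genes. Ages were compared by limma's moderated test (lmFit, eBayes, 2-sided) on log2 values, adjusted by Benjamini-Hochberg over all genes at a threshold of 0.05, with 95% intervals from the moderated degrees of freedom, and the test was tried on simulated data. The floor of an array is its lowest detected log2 intensity. Summed signals are linear normalised intensities less the offset.

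The genes named are those past the threshold (up to 20), the 5 highest and 5 lowest changes, the 3 brightest and 3 faintest genes, symbols ending in l, x or y, unmeasured genes, genes whose probes differ in sign where 1 passes (there were 0) and up to 3 genes per related list by adjusted p. Other ribosomal protein genes are given for their known roles, chosen after their values were seen. The members, lists and tests were chosen with earlier results of these data known. Start regions came from RefSeq (GRCm38.p6).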

Additional observations from a re-analysis of the deposited data

Results flagged for a closer look

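Within an age, 13 of the 104 sets of 6 values (52 genes at each age) had a highest or lowest array whose gap to the next, as a share of the whole range, was above Dixon's 95% critical value. Chance flags about 1 set in 20. Array 6 of the 50-week group (old array 6) accounts for 8 of the 13. It was high for Rpl23 (14.51, others of its age 13.71 to 13.90), Rpl37 (13.34, others 12.95 to 13.04), Rplp2 (12.89, others 12.72 to 12.76), Rps24 (13.78, others 13.09 to 13.26) and Rps26 (12.34, others 11.63 to 11.84). It was low for Rpl9 (12.65, others 12.90 to 12.95), Rps6 (10.30, others 10.88 to 11.03) and Rps7 (9.24, others 9.70 to 9.89). The remaining 5 were young array 1 for Rpl36a (11.69, others 11.40 to 11.45), young array 4 for Rpl9 (12.72, others 12.85 to 12.92), young array 6 for Rps9 (12.06, others 11.91 to 11.96), old array 1 for Rps15 (10.40, others 9.95 to 10.08) and old array 2 for Rps2 (12.90, others 13.04 to 13.09).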

How the results depend on the processing

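Counts are given as small subunit higher and lower, then large subunit higher and lower, and were 0, 0, 0 and 1 as reported. They were 1, 0, 1 and 1 without background correction and without a detection filter, 0, 0, 1 and 0 on the authors' scaled values, 2, 0, 1 and 4 with array weights, 0, 0, 0 and 0 after scaling to a common median (1 gene with an unadjusted p under 0.05), and 1, 1, 0 and 3 without young array 2 together with old array 6, where the small subunit gene that fell was Rps27l (-0.20, adjusted p = 0.0484 by limma). With probes detected on all 12 arrays and with the mean of a gene's probes they were as reported. Probe by probe, an alternative chosen after seeing the data, they were 0, 0, 0 and 1. Over fits with 1 array left out they ranged from 0 to 2, 0 to 0, 0 to 1 and 0 to 4, the highest without old array 6. All genes called were 1171 as reported, 393 with median scaling and 2593 with array weights. Median scaling moved the median change of all genes to 0.10 and that of the small and large subunit to 0.11 and 0.08, or 0.01 and -0.03 relative to all genes. Rpl26 lost its call in 13 of 21 alternatives, among them the authors' scaled values (-0.17, adjusted p = 0.179). Signs changed, with no call on either side, for Rpl23 (-0.05 with the mean of its probes), Rpl21 (0.04 with median scaling, and -0.23 to 0.00 with 1 array left out), Rpl36al (0.08 with median scaling, 0.00 on the authors' values) and Rps4x (0.11 with median scaling, 0.04 on the authors' values, and -0.06 to 0.01 with 1 array left out). The replicate numbers of the titles were not shown to pair the arrays. Same-numbered arrays had correlations of their deviations between -0.01 and 0.30, and 1 of 6 young arrays was closest to its own number. Amy1, however, was lowest on arrays 3 and 5 at both ages. Whether arrays of the same number share a handling step was not tested. With that number as a replicate block 0 genes of either subunit passed (Rpl26 -0.25, adjusted p = 0.105), and 911 of all genes. The cause of these shifts was not tested.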
